A study of Homo sapiens with 12 samples.

Results

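The genes described here encode the proteins of the mitochondrial ribosome. They were taken by their symbols, MRPL or MRPS followed by a number, which gave 76 of the 23710 gene symbols counted: 47 MRPL genes, named for the large subunit, and 29 MRPS genes, named for the small subunit. Their expression was measured by RNA sequencing in RCC4 cells, a line from a human clear cell renal carcinoma, 72 h after transfection with 40 pmol of small interfering RNA (siRNA). Experiment 1 compared siMESH1-CDS, an siRNA against the coding sequence of MESH1 (gene symbol HDDC3), with a nontargeting control (siNT), and experiment 2 compared siMESH1-7002, an siRNA against the 3′UTR of MESH1, with its own siNT, with 3 libraries in each of the 4 groups and 12 in all. RCC4 is 1 cell line. The labels call the 3 libraries of a group biological replicates and do not say whether each came from a culture of its own, so p-values measure the spread between these libraries.

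Mitochondrial ribosomes translate the few proteins that mitochondrial DNA encodes, all of them core subunits of the respiratory chain and ATP synthase. Their RNA comes from mitochondrial DNA, but every protein of the particle is encoded in the nucleus, made in the cytosol and imported. Part of the proteins descend from those of the bacterial ribosome and part are found only in mitochondria. MESH1 hydrolyses the alarmone ppGpp and, in human cells, NADPH, and the study asked how the transcriptome of RCC4 cells responds to its loss.

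The targeted gene fell with both siRNAs. HDDC3 was at 7.48 ± 0.913 CPM (reads per 1000000 of a library's scaled size; mean ± SD, n = 3) in siNT and 0.158 ± 0.158 with siMESH1-CDS (log2 fold change -5.56, SE 0.82), and at 13.2 ± 0.630 in siNT and 1.38 ± 0.291 with siMESH1-7002 (log2 -3.25, SE 0.13). Reads assigned to genes numbered 34063155 to 49134129 per library in experiment 1 and 24787804 to 31651125 in experiment 2. The siMESH1-CDS libraries stood apart from all others: 14482 to 14944 genes had a read in them against 15743 to 15775 in their siNT libraries, 18.4% to 20.8% of their reads fell outside genes against 14.7% to 15.5%, and the chi-square per degree of freedom between 2 libraries of that group was 69.2 to 293 against 2.29 to 16.1 within the other groups. Markers listed for the cell line (PAX8, PAX2, KRT8, KRT18, CA9, NDUFA4L2 and VIM) were present in every siNT group. Of these 7, 6 fell with siMESH1-CDS, and 1 rose and 3 fell with siMESH1-7002, and their part in the results was not tested. By contrast, PTPRC, CD3E, PECAM1, CDH5, ALB and INS, markers of blood, vessel, liver and islet cells, were at means of 0 to 0.146 CPM in every group. CD68, listed as a macrophage marker, was at 54.7 ± 8.82 CPM in siNT and 3.57 ± 3.36 CPM with siMESH1-CDS, and at 105 ± 1.04 and 140 ± 5.19 CPM in experiment 2.

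Of the 76 genes, 74 had enough reads to be tested in each experiment. MRPS18B, 1 of 3 human paralogs of bacterial S18, was listed at 0 reads in all 12 libraries, which allows at most 0.0611 to 0.121 CPM by counting error alone. That limit holds only if reads of MRPS18B could be assigned to it in the counting, which was not tested. MRPS24, a small-subunit protein, had 0 to 6 reads per library, and its exons overlap those of the readthrough gene URGCP-MRPS24 on the same strand, so its level cannot be read from these counts. The exons of MRPL28, MRPS16 and MRPS6 also overlap another counted gene on the same strand, TMEM8A, DNAJC9 and SLC5A3 respectively, and reads in the shared parts may be left out or assigned to either gene. Per kilobase of transcript, averaged over the 12 libraries, MRPL37 (177 CPM per kilobase), MRPL33 (165) and MRPS15 (121) had the highest levels of the tested members. The lowest were MRPL42 (5.02), MRPL50 (5.99) and MRPS25 (6.14). The value of MRPL42 rests on an annotated transcript of 15582 bases, nearly all 3′UTR, and would be higher on a shorter one.

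More of these genes fell than rose with each siRNA, and MRPL50 had the largest rise with both as counted. With siMESH1-CDS, 21 of 74 genes rose (28.4%) and 35 fell (47.3%) in the edgeR quasi-likelihood test at a Benjamini-Hochberg adjusted p under 0.05, where 36.9% of all 13395 genes tested rose and 37.2% fell. With siMESH1-7002, 7 rose (9.46%) and 27 fell (36.5%), where 26.6% of 13568 genes rose and 26.7% fell. In both experiments the share that rose was therefore below that of all genes and the share that fell was above it. The median log2 fold change of the 74 genes was -0.47 with siMESH1-CDS (all genes, -0.05) and -0.08 with siMESH1-7002 (all genes, 0.01), so the typical change with siMESH1-7002 was small. The 3 siMESH1 libraries lay wholly above the 3 siNT libraries for 23 genes and wholly below for 38 with siMESH1-CDS (40.2% and 42.5% of all genes), and for 10 and 33 with siMESH1-7002 (29.6% and 29.9%). Under library size scaling, which moved the median of all genes from -0.05 to -0.31 with siMESH1-CDS, 12 rose and 38 fell with that siRNA. With all 4 groups in 1 fit, 1 rose and 4 fell with siMESH1-7002.

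**Figure D1:**
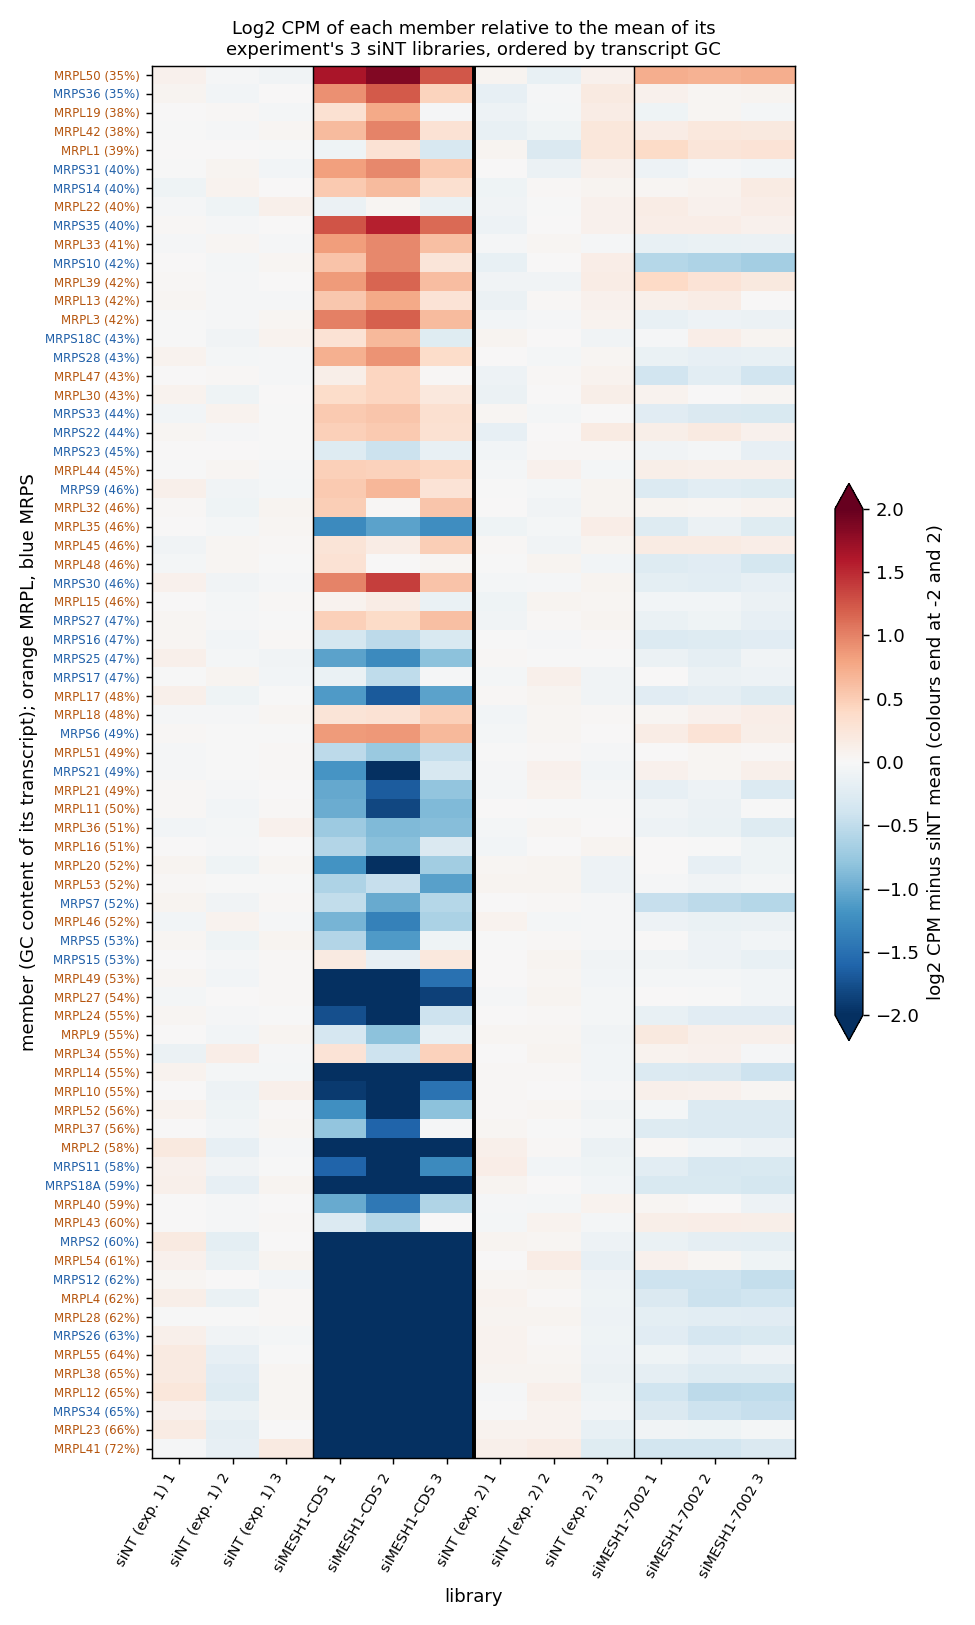
Log2 CPM of the 74 tested genes (rows, ordered by the GC content of their transcript, given in parentheses; orange MRPL, blue MRPS) in each of the 12 libraries (columns), relative to the mean of the siNT libraries of the same experiment; colours end at -2 and 2. In the siMESH1-CDS libraries most genes of low GC content are red and those of high GC content are blue, while the siMESH1-7002 libraries show a paler pattern, with MRPL50 highest and MRPS10 lowest.

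The balance of rises and falls between the large and the small subunit was not the same in the 2 experiments. With siMESH1-CDS, 9 of 47 MRPL genes rose and 25 fell (median log2 fold change -0.71), against 12 rising and 10 falling of 27 MRPS genes (median 0.09). With siMESH1-7002 the balance was the other way: 6 MRPL genes rose and 14 fell (median -0.05), and 1 MRPS gene rose while 13 fell (median -0.13). Summed over all members of a subunit, the MRPL level was 2673 ± 59.6 CPM in siNT and 2312 ± 50.1 CPM with siMESH1-CDS, whereas the MRPS level was 1570 ± 38.8 CPM and 1765 ± 53.3 CPM (n = 3 each). These levels use each library's scaled size, whose scaling factor was lower in every siMESH1-CDS library than in every siNT library of experiment 1. Without that factor the MRPS sum was lower, not higher, in every siMESH1-CDS library than in these siNT libraries. The rise of the MRPS sum therefore depends on the scaling, whereas the ratio of both sums does not. The ratio of the MRPL to the MRPS sum was 1.69, 1.70 and 1.72 in the siNT libraries and 1.30, 1.25 and 1.39 with siMESH1-CDS. In experiment 2 the MRPL sum was 2539 ± 40.6 CPM in siNT and 2385 ± 30.3 CPM with siMESH1-7002, and the MRPS sum was 1517 ± 20.8 and 1342 ± 20.7 CPM. The ratio was 1.69, 1.68 and 1.66 in siNT and 1.77, 1.77 and 1.78 with siMESH1-7002. Neither ratio overlapped between siNT and siMESH1, and they moved in opposite directions. Over both subunits these genes took 0.465% of the reads in genes in siNT and 0.372% with siMESH1-CDS, and 0.407% and 0.371% in experiment 2. These shares do not use the scaling factor. In bulk samples, less RNA per cell and fewer cells expressing a gene cannot be told apart.

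**Figure D2:**
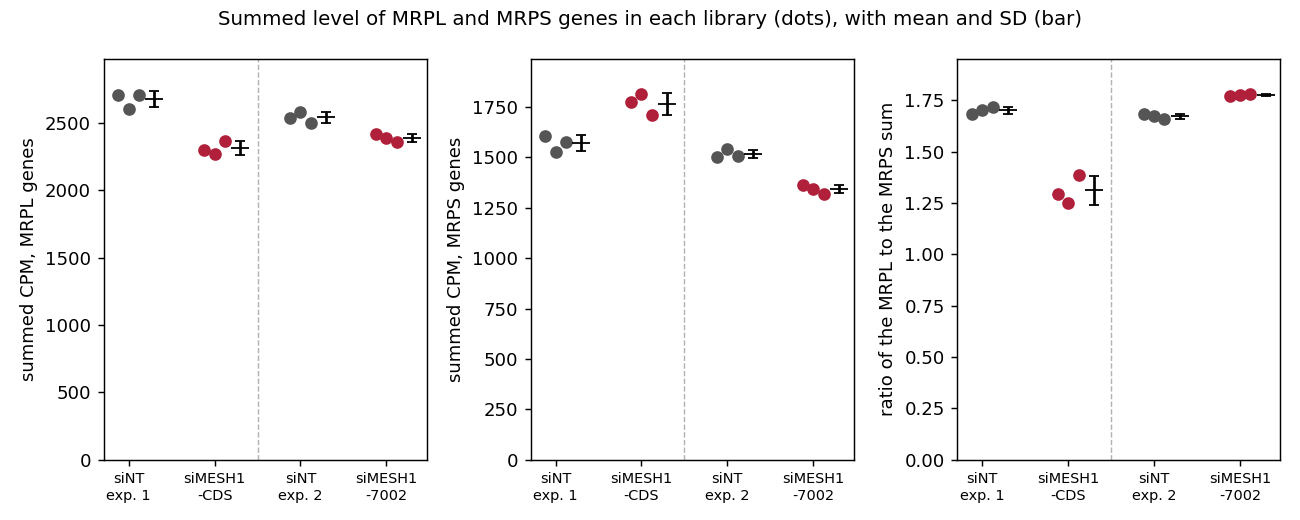
Summed CPM of the 47 MRPL genes (left) and the 29 MRPS genes (middle) and the ratio of both sums (right) in each library (dots; grey siNT, red siMESH1), with the mean and SD of the 3 libraries as a bar; the dashed line parts the experiments. The ratio lies between 1.25 and 1.39 with siMESH1-CDS, below its siNT libraries, and between 1.77 and 1.78 with siMESH1-7002, above its siNT libraries.

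The change with siMESH1-CDS ran against the GC content of the transcript. Across the 74 genes, which are not independent replicates, Spearman's rho between transcript GC content and log2 fold change was -0.87 with siMESH1-CDS (-0.74 over all genes tested) and -0.43 with siMESH1-7002 (-0.19 over all genes). Of the 25 members with the lowest GC content (35.0% to 45.7%), 17 rose and 2 fell with siMESH1-CDS, with a median log2 fold change of 0.49. Of the 25 tested members among the 26 with the highest (54.2% to 71.9%), none rose and 20 fell, with a median of -3.97. The MRPL genes had a median GC content of 50.7% and the MRPS genes of 47.2%. In single libraries the level of the 74 genes ran against their GC content with a rho of -0.30 to -0.34 in siNT of experiment 1 and -0.63 to -0.78 with siMESH1-CDS, and with it at 0.30 to 0.42 in all libraries of experiment 2. An offset that makes the smooth relation of level to GC content equal in all libraries was therefore added as an alternative, and its values are given below beside the others. Under it 15 members rose and 31 fell with siMESH1-CDS (all genes, 40.3% and 26.8%), and the median change was -0.45 for MRPL genes, -0.08 for MRPS genes and 0.17 for all genes. Of the 21 genes that rose as counted, 7 still rose and 2 fell. Of the 35 that fell, 24 still fell and 2 rose. With siMESH1-7002 the offset left all 7 rises and 23 of the 27 falls in place and added 9 rises and 2 falls (all genes, 38.6% and 23.6%).

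**Figure D3:**
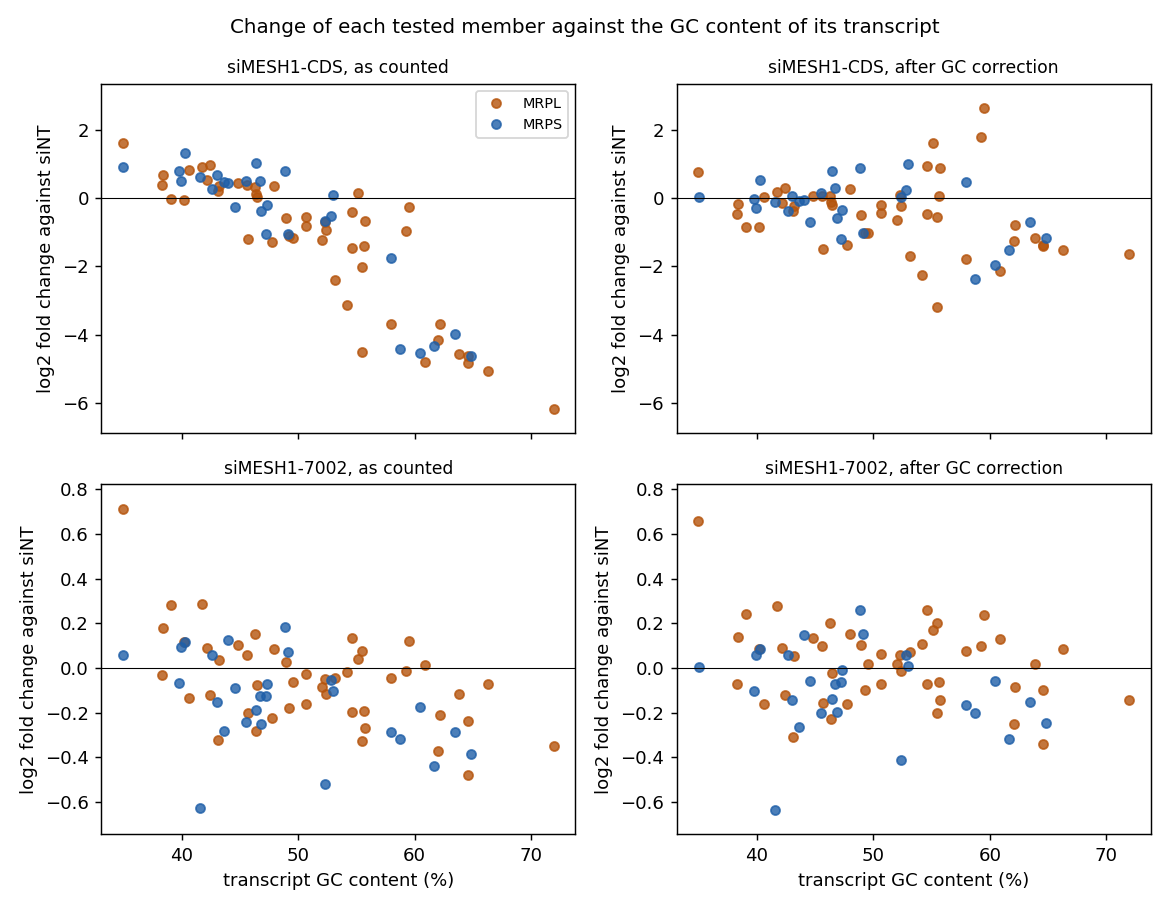
Log2 fold change of each tested gene (orange MRPL, blue MRPS) against the GC content of its transcript, with siMESH1-CDS (top) and siMESH1-7002 (bottom), as counted (left) and with the GC offset (right); both panels of a row share their vertical scale. As counted, Spearman's rho is -0.87 and -0.43; with the offset it is -0.35 and -0.16.

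MRPL50, a protein of the large subunit that bacterial ribosomes lack, had the largest rise in each experiment as counted. Its level was 15.2, 14 and 13.6 CPM in siNT and 44.1, 51.6 and 33.9 CPM with siMESH1-CDS, a 3.03-fold rise (log2 fold change 1.60, SE 0.19, edgeR adjusted p = 0.00079). In experiment 2 it was 8.80, 7.60 and 8.97 CPM in siNT and 14, 13.7 and 14 CPM with siMESH1-7002, a 1.64-fold rise (log2 0.71, SE 0.09, adjusted p = 2.5e-06). All siMESH1 libraries were above all siNT libraries in both, and no other member rose by more than 0.29 on the log2 scale with siMESH1-7002. MRPL50 also has the transcript of lowest GC content among the members (35.0%). Its log2 fold change with the GC offset was 0.75 with siMESH1-CDS and 0.66 with siMESH1-7002. Under that offset 8 members rose more than MRPL50 with siMESH1-CDS and 0 with siMESH1-7002. The 8 were led by MRPL43 (2.64, as counted -0.26), MRPL40 (1.79, as counted -0.97) and MRPL34 (1.61, as counted 0.15). As counted, the rise of MRPL50 was larger with siMESH1-CDS (difference of the log2 changes 0.73, SE 0.20, adjusted p = 0.0074), but with the offset the difference was 0.00 (adjusted p = 0.99).

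The gene lies on the minus strand at chr9:101387633-101398614 (GRCh38, GENCODE 29). Its 3′UTR carries 1 match to bases 2 to 8 of the siMESH1-7002 guide, the stretch by which small RNAs can pair with transcripts other than their target. The target of siMESH1-7002 in MESH1 and the matches in the 3′UTRs of MRPL50 and MRPS30 are shown because MRPL50 had the largest rise and MRPS30 changed in opposite directions with the 2 siRNAs, with the bases facing guide positions 2 to 8 in capitals.
siMESH1-7002 target: ctgaaggtctcctGCTAACTa
MRPL50 3′UTR, chr9:101387864-101387890, minus strand: aattaggcttGCTAACTtgtttaatga
MRPS30 3′UTR, chr5:44815413-44815439, plus strand: tttgtatattGCTAACTgataagacaa
The matched gene MRPL50 rose and MRPS30 fell (log2 -0.19). The third match lay in MRPL42 (log2 fold change 0.18, SE 0.08, adjusted p = 0.076). These 3 were 4.05% of the 74 members with an annotated 3′UTR, beside 4.35% of all genes tested. For siMESH1-CDS, 8 of 74 members (10.8%, beside 11.9% of all genes) held a match, of which 5 rose and 2 fell. A match to a seed is a description and not evidence of pairing.

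MRPL39 and MRPS6 were the other genes that rose with both siRNAs (3 of 74, 4.05%, where 15.5% of the 12824 genes tested in both rose with each). Under the GC offset 6 did (where 21.3% of all genes did): MRPL50, MRPS6, MRPL9, MRPL18, MRPL34 and MRPL43. As counted, MRPL9 (-0.41), MRPL34 (0.15) and MRPL43 (-0.26) did not pass the test with siMESH1-CDS, so their rises appear with the offset only. MRPL39, a mitochondrion-specific protein of the large subunit, was at 38.9, 37.7 and 38.6 CPM in siNT and 69.2, 86.2 and 58.6 CPM with siMESH1-CDS (log2 fold change 0.89, SE 0.16, adjusted p = 0.0033). With siMESH1-7002 it was at 25.6, 23.4 and 22.4 CPM against 18.4, 18.5 and 21.5 CPM in siNT (log2 0.29, SE 0.08, adjusted p = 0.0054). The libraries did not overlap in either experiment, though the highest siNT and the lowest siMESH1-7002 library were close. With the GC offset the rise of MRPL39 with siMESH1-CDS was 0.17 and did not pass the test (adjusted p = 0.063). MRPS6, the small-subunit counterpart of bacterial S6, was at 72.4, 71.4 and 71.0 CPM in siNT and 130, 131 and 112 CPM with siMESH1-CDS (log2 0.80, SE 0.10, adjusted p = 0.00089), and at 46.4, 48.8 and 47.9 CPM in siNT and 52.7, 57.9 and 51.9 CPM with siMESH1-7002 (log2 0.18, SE 0.06, adjusted p = 0.013). Its rises held with the GC offset, at 0.87 and 0.26, while without siMESH1-7002 library 2 the second was 0.13 (adjusted p = 0.12). Its exons overlap those of SLC5A3, as given above.

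Among the other rises, MRPS35, a mitochondrion-specific protein of the small subunit, went from 143, 139 and 143 CPM to 339, 413 and 309 CPM with siMESH1-CDS (log2 fold change 1.32, SE 0.12, adjusted p = 0.00047; 0.53 with the GC offset). In experiment 2 its groups overlapped, at 67.8 to 77.7 CPM in siNT and 77.0 to 80.2 CPM with siMESH1-7002 (log2 0.12, adjusted p = 0.093). MRPL3, the homolog of bacterial L3, rose with siMESH1-CDS from 155 ± 3.46 to 302 ± 57.2 CPM (log2 0.96, SE 0.15) and was at 79.3 ± 3.41 and 72.9 ± 1.10 CPM in experiment 2 (log2 -0.12, adjusted p = 0.055). MRPS36, which keeps a ribosomal name but is known as a subunit of the 2-oxoglutarate dehydrogenase complex, rose from 20.1 ± 0.705 to 37.5 ± 9.80 CPM with siMESH1-CDS (log2 0.90, SE 0.21), a change of 0.04 with the GC offset. With siMESH1-7002, MRPL1 (log2 0.28, SE 0.10, adjusted p = 0.031) and MRPL45 (log2 0.15, SE 0.05, adjusted p = 0.026) rose as well. MRPL1 is the homolog of bacterial L1, and MRPL45 lies at the exit of the peptide tunnel and faces the inner membrane. Neither passed the test with siMESH1-CDS as counted (log2 -0.02 and 0.31; with the GC offset MRPL1 fell, at -0.84, and MRPL45 was at 0.06), nor with siMESH1-7002 without siMESH1-7002 library 1 or 3, or without siNT library 2 (adjusted p = 0.059 to 0.18), and MRPL45 not without siMESH1-7002 library 2 either.

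**Figure D4:**
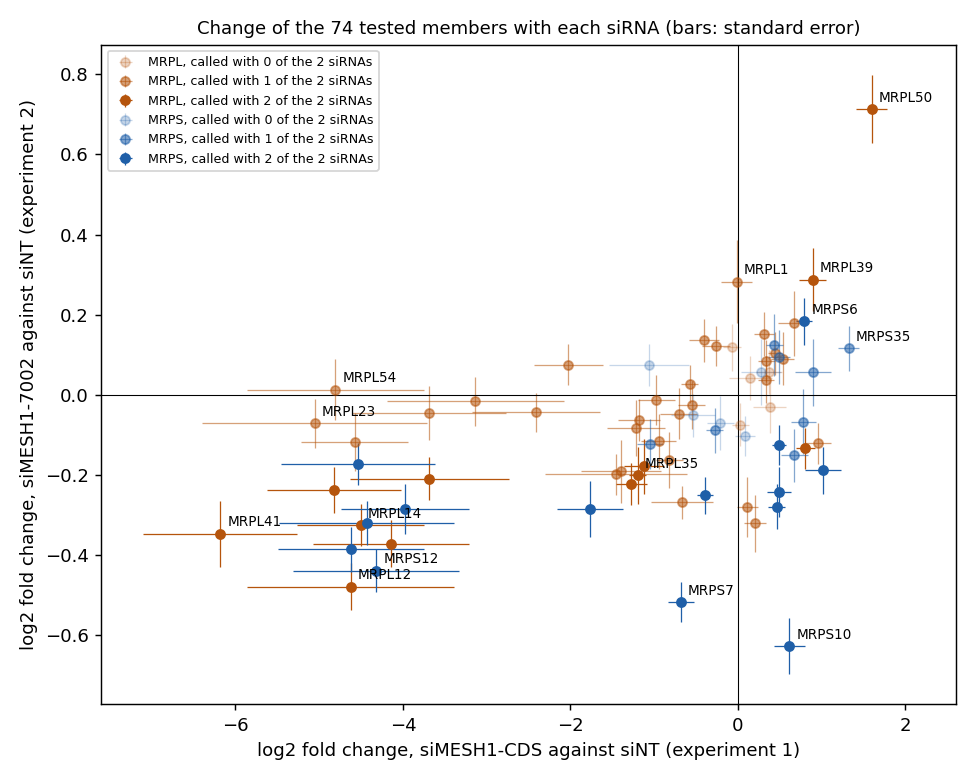
Log2 fold change of the 74 tested genes with siMESH1-CDS (horizontal) and siMESH1-7002 (vertical), each with its standard error; orange MRPL, blue MRPS, and darker points are called with more of the 2 siRNAs. MRPL50 stands alone at the upper right, MRPS10 is lowest on the vertical axis with a rise on the horizontal one, and the genes below -3 on the horizontal axis lie between -0.48 and 0.01 on the vertical one.

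A larger number of genes fell with both siRNAs: 17 of 74 (23.0%, where 15.1% of the 12824 genes fell with each). They were 9 MRPL and 8 MRPS genes, and the 6 with the largest falls by the smaller of their 2 changes were MRPS7, MRPL12, MRPS12, MRPS34, MRPL4 and MRPL41. MRPS7, the homolog of bacterial S7 in the head of the small subunit, had falls of like size in both. It was at 90.2, 82.4 and 87.9 CPM in siNT and 61.5, 42.9 and 58.2 CPM with siMESH1-CDS (log2 fold change -0.68, SE 0.15, edgeR adjusted p = 0.0086), and at 93.0, 94.2 and 91.4 CPM in siNT and 67.2, 64.5 and 62.7 CPM with siMESH1-7002 (log2 -0.52, SE 0.05, adjusted p = 2e-07). No siMESH1 library reached its lowest siNT library in either experiment. The difference of both changes was -0.31 (SE 0.17, adjusted p = 0.12), and the fall with siMESH1-CDS was 0.04, with the other sign, once the GC offset was added, while that with siMESH1-7002 was -0.41.

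MRPL12, the stalk protein that recruits translation factors to the large subunit, was at 37.9, 27.2 and 33.6 CPM in siNT and 0.379, 0.0780 and 3.54 CPM with siMESH1-CDS (log2 fold change -4.63, SE 1.23, adjusted p = 0.015). The 3 siMESH1-CDS values rest on 3 to 123 reads and differ widely among themselves, and without siMESH1-CDS library 1 the change was -4.19 (adjusted p = 0.051). With siMESH1-7002 the gene was at 61.3, 56.3 and 56.6 CPM against 79.9, 86.9 and 76.1 CPM in siNT (log2 -0.48, SE 0.06, adjusted p = 3.6e-06). MRPS12, the homolog of bacterial S12 at the decoding centre, fell by 4.32 on the log2 scale with siMESH1-CDS and by 0.44 with siMESH1-7002 (74.8, 74.6 and 71.8 CPM against 103, 104 and 92.9 CPM in siNT). MRPS34, a mitochondrion-specific protein of the small subunit, fell by 4.62 and 0.39, and MRPL4, the homolog of bacterial L4, fell by 4.15 and 0.37. MRPL41, another mitochondrion-specific protein and the member of highest GC content (71.9%), had the largest fall of all with siMESH1-CDS, from 5.00, 4.49 and 5.76 CPM to 0, 0 and 0.201 CPM (0 to 7 reads; log2 -6.18, SE 0.92, adjusted p = 0.0018), and fell by 0.35 with siMESH1-7002. With the GC offset the changes of MRPL12 (-1.40) and MRPL41 (-1.64) with siMESH1-CDS did not pass the test, those of MRPS12 (-1.53), MRPS34 (-1.17) and MRPL4 (-1.26) did, and 9 of the 17 genes fell with both siRNAs. Of all 74 genes tested, 10 fell with both under the offset, where 10.6% of the 12824 genes did.

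**Figure D5:**
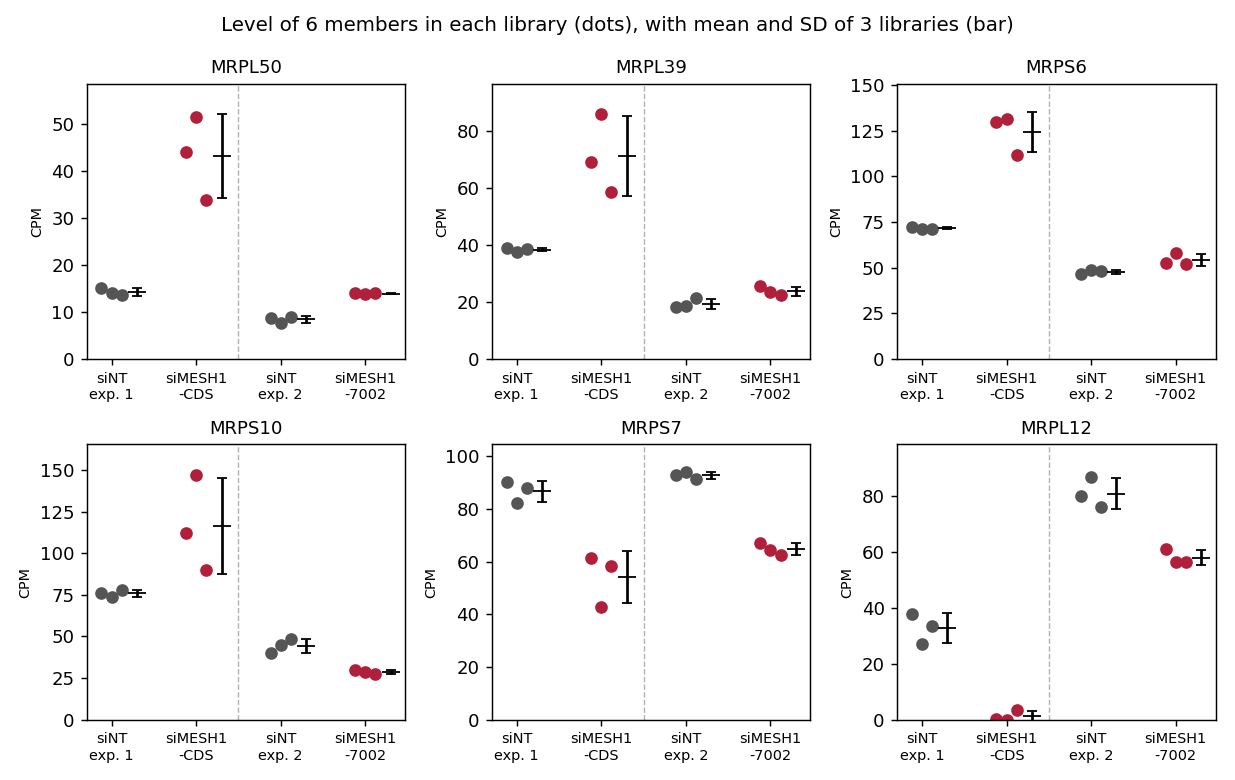
Level (CPM) of MRPL50, MRPL39, MRPS6, MRPS10, MRPS7 and MRPL12 in each library (dots; grey siNT, red siMESH1), with the mean and SD of the 3 libraries as a bar; axes start at 0 and the dashed line parts the experiments. The first 3 genes are higher with both siRNAs, MRPS10 is higher with siMESH1-CDS (90.1 to 147 CPM) and lower with siMESH1-7002 (27.7 to 29.7 CPM), and MRPS7 and MRPL12 are lower with both.

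The remaining genes of the 5 largest falls with siMESH1-CDS changed less with siMESH1-7002. MRPL23, at the exit of the peptide tunnel, went from 24.1, 19.0 and 21.5 CPM to 0.158, 0 and 1.78 CPM (log2 fold change -5.05, SE 1.34; adjusted p = 0.054 without siMESH1-CDS library 1), MRPL38, of the central protuberance, fell by 4.82 (SE 0.80), and MRPL54, near the stalk, fell by 4.81 (SE 1.06). In experiment 2 the log2 fold change was -0.07 for MRPL23 and 0.01 for MRPL54, and neither passed the test, while MRPL38 fell by 0.24. MRPL55, a mitochondrion-specific large-subunit protein, and MRPL35, the homolog of bacterial L35, had 2 of the 3 smallest p-values for the difference between the siRNAs, with MRPL41. These p-values rest on a spread shared by both experiments, a limit given below. MRPL55 was at 5.10 ± 0.619 CPM in siNT and 0.211 ± 0.216 CPM with siMESH1-CDS, against 19.6 ± 1.22 and 18.1 ± 0.515 CPM in experiment 2. MRPL35, whose transcript has a GC content of 45.7%, was at 83.9, 81.4 and 86.5 CPM in siNT and 34.7, 40.0 and 35.4 CPM with siMESH1-CDS (log2 -1.19, SE 0.10, adjusted p = 0.00038), with a change of -1.51 under the GC offset. With siMESH1-7002 it fell by 0.20 (SE 0.07, adjusted p = 0.026), a call lost without siNT library 3 or without siMESH1-7002 library 1 or 3 (adjusted p = 0.057 to 0.11).

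Of the 74 genes, 6 (8.11%, where 11.6% of the 12824 genes did so) were called in opposite directions, each higher with siMESH1-CDS and lower with siMESH1-7002. They were MRPS10, MRPS33, MRPS9, MRPS30, MRPL33 and MRPS27. Which genes these are depends on the GC offset: under it MRPS30, MRPL3, MRPL37 and MRPS11 were higher with siMESH1-CDS and lower with siMESH1-7002, and MRPL1, MRPL10 and MRPL51 the reverse. MRPS10, the homolog of bacterial S10, was at 76.1, 73.7 and 78.1 CPM in siNT and 112, 147 and 90.1 CPM with siMESH1-CDS (log2 fold change 0.62, SE 0.18, adjusted p = 0.023). In experiment 2 it had the largest fall of all members, from 40.0, 44.7 and 48.6 CPM to 29.7, 28.8 and 27.7 CPM (log2 -0.63, SE 0.07, adjusted p = 1.3e-06). The groups did not overlap in either, and the difference of both changes was 1.09 (SE 0.21, adjusted p = 0.0011). The fall with siMESH1-7002 was -0.64 with the GC offset, while the change with siMESH1-CDS was -0.12 and did not pass the test. The rise with siMESH1-CDS as counted also missed the threshold without siMESH1-CDS library 1 or any one siNT library (adjusted p = 0.057 to 0.075).

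MRPS30, which despite its name lies in the large subunit, was at 39.4, 35.1 and 36.5 CPM in siNT and 73.4, 96.2 and 54.7 CPM with siMESH1-CDS (log2 1.02, SE 0.21, adjusted p = 0.0065), and at 36.3, 36.5 and 38.7 CPM in siNT and 32.6, 32.3 and 33.0 CPM with siMESH1-7002 (log2 -0.19, SE 0.06, adjusted p = 0.012). It was the only gene of the 6 called in opposite directions with the GC offset too (0.78 and -0.14), and its fall missed the threshold without siMESH1-7002 library 2 (adjusted p = 0.056). MRPL33, the homolog of bacterial L33, went from 50.8 ± 1.14 to 88.9 ± 10.7 CPM with siMESH1-CDS and from 66.1 ± 1.88 to 60.2 ± 0.799 CPM with siMESH1-7002, changes of 0.81 and -0.13. The other changes with siMESH1-CDS and siMESH1-7002 were 0.47 and -0.28 for MRPS33, 0.49 and -0.24 for MRPS9, and 0.49 and -0.13 for MRPS27. MRPS27, a pentatricopeptide repeat protein of the small subunit, had the smallest of these falls. The falls of MRPL33 and MRPS27 missed the threshold without siNT library 2 or any one siMESH1-7002 library (adjusted p = 0.061 to 0.17), and the rise of MRPS9 without siNT library 2 or 3 or siMESH1-CDS library 1 (adjusted p = 0.066 to 0.072).

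Fitted in 1 model over the 12 libraries, the change differed between the siRNAs for 53 of 74 genes: 15 were higher with siMESH1-CDS (20.3%, where 30.0% of 14154 genes were) and 38 lower (51.4%, where 39.7% were). That model shares its estimate of the spread over both experiments. Fitted apart, their common coefficient of variation was 0.299 and 0.049. The SE of the difference can thus be too small for genes of few reads with siMESH1-CDS. For MRPL41 it was 0.63, below the 0.92 of the siMESH1-CDS change alone. Each experiment has its own siNT libraries. The siRNA cannot be told apart from the experiment here, since each siRNA was used in 1 experiment only. Under the GC offset the count was also 53, with 15 higher and 38 lower, where 61.0% of all genes differed, but the genes were partly others. Of the 53 as counted, 35 differed in the same direction under the offset, 4 in the other (MRPL9, MRPL40, MRPL43 and MRPS11) and 14 did not pass, while 14 others did. The sign of the change was the same with both siRNAs for 52 of the 74 genes, and Spearman's rho of both changes across these genes was 0.46 (0.26 with the GC offset), a description only, since the changes ran with GC content in both experiments.

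By position in the ribosome, the 5 proteins at or near the stalk base, where translation factors bind, moved in 1 direction with siMESH1-CDS as counted. Of all genes tested, 37.2% fell with that siRNA. The transcripts of these 5 have a GC content of 49.6% to 64.6%, all above the median of the 76 members (49.2%). Whether the position goes with the falls apart from GC content was not tested. MRPL10, MRPL11, MRPL12, MRPL53 and MRPL54 all fell with siMESH1-CDS (log2 fold change -2.02, -1.18, -4.63, -0.71 and -4.81), and with siMESH1-7002 only MRPL12 fell, with values of -0.06 to 0.07 for the others. The change was lower with siMESH1-CDS for all 5 in the test of the difference as counted, and for 3 of them, MRPL10, MRPL11 and MRPL54, with the GC offset. These 3 also still fell with siMESH1-CDS under it, while MRPL12 and MRPL53 (0.09) did not pass the test, and MRPL10 rose with siMESH1-7002 (0.20). The fall of MRPL53 as counted was lost without siMESH1-CDS library 1 or any one siNT library (adjusted p = 0.068 to 0.090).

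The 7 proteins listed for the exit of the peptide tunnel were mixed. MRPL17 fell with both siRNAs (log2 -1.27 and -0.22), MRPL23 passed the test with siMESH1-CDS alone (-5.05 and -0.07), and so did MRPL44, with a rise (0.45 and 0.10). MRPL24 (-1.45 and -0.20), MRPL45 (0.31 and 0.15) and MRPL47 (0.20 and -0.32) passed the test with siMESH1-7002 alone, and MRPL22 (-0.07 and 0.12) in neither. Under the GC offset MRPL23 (-1.52) and MRPL44 (0.04) did not pass the test with siMESH1-CDS, and MRPL22 (-0.85) and MRPL47 (-0.39) fell. With siMESH1-7002 and the offset MRPL24 (-0.07) did not pass the test and MRPL44 (0.14) rose. Of the 5 proteins of the central protuberance, the part of the large subunit that meets the head of the small one, MRPL38, MRPL40 and MRPL46 fell with siMESH1-CDS (-4.82, -0.97 and -0.94) and MRPL18 rose (0.34; adjusted p = 0.064 to 0.082 without any one siNT library), while MRPL38 and MRPL48 fell with siMESH1-7002 (-0.24 and -0.28). Under the GC offset MRPL40 was higher with siMESH1-CDS (1.79), MRPL46 (-0.23) did not pass the test and MRPL38 fell by 1.36.

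The tested paralogs of bacterial S18 differed in their calls. MRPS18A, which lies in the large subunit, went from 39.4, 32.6 and 38.0 CPM to 0.632, 0.234 and 4.23 CPM with siMESH1-CDS (log2 -4.43, SE 1.05, adjusted p = 0.0098) and from 52.1, 50.6 and 48.8 CPM to 41.1, 40.9 and 39.4 CPM with siMESH1-7002 (log2 -0.32, SE 0.06, adjusted p = 0.00012). MRPS18C was at 19.4 ± 0.926 and 23.5 ± 7.01 CPM in experiment 1 and at 11.3 ± 0.496 and 11.7 ± 0.685 CPM in experiment 2, and passed the test in neither. The transcripts of MRPS18A and MRPS18C have a GC content of 58.7% and 42.6%. With the GC offset the changes of MRPS18A and MRPS18C with siMESH1-CDS were -2.37 and -0.38, and only that of MRPS18A passed the test.

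Assigned by structure, with MRPS18A and MRPS30 in the large subunit and MRPS36 left out, 10 of 49 large-subunit genes rose and 26 fell with siMESH1-CDS, against 10 and 9 of 24 small-subunit genes. With siMESH1-7002 the counts were 6 and 16 of 49 and 1 and 11 of 24. As counted, genes with a bacterial homolog and mitochondrion-specific genes differed less in their counts than the subunits did. Of 45 genes with a bacterial homolog, 10 rose and 21 fell with siMESH1-CDS (median log2 fold change -0.54) and 3 and 18 with siMESH1-7002 (median -0.08). Of 29 mitochondrion-specific genes, 11 rose and 14 fell (median -0.27), and 4 and 9 (median -0.07). With the GC offset and siMESH1-CDS, 8 of the 45 rose and 23 fell, against 7 and 8 of the 29. Of 47 MRPL genes 8 then rose and 22 fell, and of 27 MRPS genes 7 and 9 (all genes, 40.3% and 26.8%). In these counts the falls with siMESH1-CDS differed more by origin than by subunit. With siMESH1-7002 and the offset they differed more by subunit (all genes, 23.6% fell). There 13 of 47 MRPL and 12 of 27 MRPS genes fell, and 17 of the 45 and 8 of the 29. Neither contrast was tested. Among the members of highest level per kilobase, MRPL37, a mitochondrion-specific protein, was at 309, 301 and 294 CPM in siNT and 253, 249 and 249 CPM with siMESH1-7002 (log2 -0.27, SE 0.04, adjusted p = 3.9e-05). With siMESH1-CDS its libraries ranged from 101 to 299 CPM against 295 to 314 CPM in siNT (log2 -0.67, SE 0.37, adjusted p = 0.15), and the GC offset turned that value to 0.88. MRPS15, the homolog of bacterial S15, passed the test with neither siRNA as counted (log2 0.09 and -0.10) and rose with siMESH1-CDS under the GC offset (0.98). Among those of lowest level, MRPS25 fell with siMESH1-CDS from 43.3, 39.3 and 38.2 CPM to 19.2, 16.6 and 22.7 CPM (log2 -1.05, SE 0.16, adjusted p = 0.0018; -1.20 with the GC offset), and was at 27.6 ± 0.338 and 25.3 ± 0.909 CPM in experiment 2 (log2 -0.12, adjusted p = 0.11).

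The promoters of these genes share letters that the choice by symbol did not use. A window from 250 bases before to 50 after the start was at hand for 67 of the 76 genes (RefSeq, GRCh38.p14) and was searched on both strands for the letters of factors known for nuclear genes of mitochondria. AANATGGCG, letters bound by YY1, was in 18 of the 67 (26.9%), where 3.37% of 27305 promoters held it. CCGGAAGT, bound by ETS factors such as GABPA, was in 11 (16.4%, all promoters 4.44%). The other letters were nearer the share of all promoters: those of NRF1 in 7 (10.4%, all promoters 6.28%), CACGTG (the E-box) in 6 (8.96%, 7.43%) and those of ZNF143 in 2 (2.99%, 1.03%). The searched letters do not contain one another. A match is a description of these windows and not a binding site.

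The YY1 letters sat mostly on the first codon. Of 20 matches, 18 were on the strand of the gene and 16 of these lay 7 to 36 bases after the start. In 13 members the ATG within the letters was the start codon of the annotated transcript, which is 17.3% of the 75 members with bases before their start codon, beside 2.35% of 18005 genes (424). The matches of 4 members with large changes are shown with the YY1 letters in capitals, and that of MRPS34 with the letters for ETS factors, read on the opposite strand.
MRPL50, chr9:101398578-101398604, minus strand: atctcatcgAAGATGGCGgcgcgatct
MRPS10, chr6:42217835-42217861, minus strand: gggaccggcAAGATGGCGgcgcggaca
MRPS30, chr5:44808951-44808977, plus strand: tcgcgggcaAAGATGGCGgcggccagg
MRPL38, chr17:75904861-75904887, minus strand: gccggagggAAGATGGCGgcgccctgg
MRPS34, chr16:1773137-1773164, minus strand: tcttccggtgACTTCCGGccggaccgct
Genes with and without the YY1 letters both held rises and falls. Of 16 tested genes with them, 6 rose and 5 fell with siMESH1-CDS (median log2 fold change -0.04) and 3 rose and 6 fell with siMESH1-7002 (median -0.14). Of 49 without, 12 rose and 25 fell (median -0.55), and 4 rose and 19 fell (median -0.08). MRPL50, MRPS10, MRPS30 and MRPL38 hold the same letters, AAGATGGCG, and changed by 1.60, 0.62, 1.02 and -4.82 with siMESH1-CDS.

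Genes that act with the mitochondrial ribosome were counted from lists of their own, beside all genes, of which 36.9% rose and 37.2% fell with siMESH1-CDS and 26.6% and 26.7% with siMESH1-7002. Ribosomal proteins and ribosome-associated factors whose symbols do not start with MRPL or MRPS (7 tested) had no rise and 4 falls with each siRNA. AURKAIP1, a protein of the small subunit, was at 12.1 CPM in siNT and 0.160 CPM with siMESH1-CDS (log2 -6.20, adjusted p = 0.0018) and at 64.7 and 54.0 CPM with siMESH1-7002 (log2 -0.26, adjusted p = 0.0012). ICT1, a peptidyl-tRNA hydrolase built into the large subunit, fell by 1.33 with siMESH1-CDS, and GADD45GIP1, a large-subunit protein, fell by 0.22 with siMESH1-7002. With siMESH1-CDS the change of GADD45GIP1 was -5.81. The GC offset made the changes with siMESH1-CDS -2.30 for AURKAIP1, -0.83 for ICT1 and -3.20 for GADD45GIP1. Under it this list had 5 falls with siMESH1-CDS and 2 with siMESH1-7002 (all genes, 26.8% and 23.6%). Of the mitochondrial translation factors, 9 of 16 rose and 3 fell with siMESH1-CDS, and 7 of 17 rose and 4 fell with siMESH1-7002. GFM2, which helps recycle the ribosome, rose by 1.25 with siMESH1-CDS on the log2 scale (0.19 with siMESH1-7002), and MTIF3, an initiation factor, rose by 1.15 (0.21). The GC offset made the rises with siMESH1-CDS 0.51 for GFM2 and 0.44 for MTIF3. With siMESH1-7002, OXA1L, the inner membrane insertase, fell by 0.98 (adjusted p = 1.8e-10), and MTFMT, which formylates the initiator tRNA, rose by 0.58 (adjusted p = 5.2e-06). With siMESH1-CDS their changes were -0.71, which did not pass the test (adjusted p = 0.13), and 1.07.

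Assembly factors of the mitochondrial ribosome had 5 rises and 16 falls among 25 tested with siMESH1-CDS and 5 and 11 with siMESH1-7002. RBFA, a maturation factor of the small subunit, fell by 2.10 and 0.21 (the second -0.09 and not past the test with the GC offset), and RPUSD4, a pseudouridine synthase, fell by 0.70 with siMESH1-CDS (adjusted p = 0.0092; -0.18 and not past the test with the GC offset) and by 1.10 with siMESH1-7002 (adjusted p = 2.6e-10). TRUB2, another pseudouridine synthase, fell by 1.33 with siMESH1-CDS, and MTERFD1, the older symbol of MTERF3, fell by 0.67 with siMESH1-7002 (adjusted p = 2.1e-06). With the GC offset TRUB2 fell by 0.75 and MTERFD1 by 0.57 with siMESH1-CDS. Genes of mitochondrial DNA replication and transcription had 8 rises and 5 falls of 18, and 4 and 6. POLG, the replicative polymerase, fell by 2.42 and 0.43 (with the GC offset 0.33, not past the test, and -0.32), and C10orf2, which encodes the replicative helicase, fell by 1.94 and 0.54. SUPV3L1, a helicase of RNA decay, rose by 0.71 with siMESH1-CDS. Of 10 tested regulators of mitochondrial genes, 4 rose and 6 fell with siMESH1-CDS and 1 rose and 3 fell with siMESH1-7002. PPARGC1A, a coactivator of mitochondrial biogenesis, rose by 2.28 with siMESH1-CDS, where its relatives PPARGC1B and PPRC1 fell by 2.36 and 3.38. With the GC offset these were 1.48, 0.84 (adjusted p = 0.12) and -1.83. With siMESH1-7002, PPARGC1B and PPRC1 fell by 0.38 and 0.30, PPARGC1A was at -0.15 (adjusted p = 0.060; past the test at -0.20 with the GC offset), and MYC fell by 0.26. MYC fell by 0.27 with siMESH1-CDS as counted and rose under the GC offset (0.96). With the GC offset the rises and falls with siMESH1-CDS were 6 and 3 for translation factors, 5 and 8 for assembly factors, 6 and 8 for replication and transcription, and 5 and 4 for regulators. The genes that mitochondrial DNA encodes were not analysed here.

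In experiment 1, 2 pairs of siNT and siMESH1-CDS libraries shared a sequencing lane. Within each of these lanes all 21 rises and all 35 falls had the direction given above. This had to be so, since the siNT and siMESH1-CDS libraries of each called gene did not overlap. It is therefore no check of an effect of the lanes. MRPL50 differed by 1.16 on lane 4 and 1.69 on lane 6. The other libraries of experiment 1 were each alone on a lane, and all 6 of experiment 2 shared lane 2. Without siNT library 3 of experiment 1, 14 genes instead of 21 rose with siMESH1-CDS. For siMESH1-7002, the 7 rises were 3 without any one of its siMESH1 libraries, 4 without siNT library 2 and 12 without siNT library 3, so that count rests on single libraries.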

How the data were processed

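RNA from 12 libraries of RCC4 cells was sequenced as single-end reads of a stranded mRNA kit (TruSeq Stranded mRNA). The authors' processing notes name FastQC, HISAT2, HTSeq, DESeq2 and hg19, with versions not given in the sources used here, and per the methods reads were counted on the reverse strand. The deposited values are whole-number read counts per gene symbol, 1 table per library, and the lines for reads outside genes (14.7% to 20.8% of reads in experiment 1) were kept out of library sizes. The 2 deposited DESeq2 tables hold the authors' own comparisons (mean, fold change, p-value) and were not used.

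Counts were tested per experiment with edgeR 4.0.16 (R 4.3.3; filterByExpr, TMM scaling, quasi-likelihood test, Benjamini-Hochberg adjustment over all tested genes, threshold 0.05), and the difference between the siRNAs in 1 model over the 12 libraries. CPM are reads per 1000000 of the library size times its TMM factor (0.848 to 1.11), and floors use reads in genes. The SE given with a log2 fold change is its absolute value divided by the square root of the F statistic of that test. It is derived from the test and is not the standard error of a fitted coefficient. The study used DESeq2, which is an alternative here (1.42.0). Symbols were matched to GENCODE 29 (22389 of 23710, 1132 of them by an older symbol) for length, GC content and coordinates on GRCh38, and nothing was converted between builds. For the GC offset, log2 CPM (with a prior count of 1) was smoothed by lowess over the GC content of transcripts, at a span of 0.3 in each library. Floors of 3 counts and all levels cover counting error only. Named genes were MRPL50, the 5 largest rises and falls per siRNA, up to 6 genes called alike and oppositely, the 3 smallest p of the difference, the 3 highest and lowest per kilobase, genes that could not be tested, and the site lists, plus 2 genes of smallest p per other list. Other genes named are those that overlap a member, and members named for their values with the GC offset, after these were seen. The members and lists were chosen with earlier results of these data known. The scripts were tested on simulated data with known changes. Alternatives covered scaling, filter, tool, replicate block, lane, GC offset, thresholds and each library left out. One listed marker gene is not reported here.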

Additional observations from a re-analysis of the deposited data

Results flagged for a closer look

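The change with siMESH1-CDS and that with siMESH1-7002 were compared in 1 edgeR model over the 12 libraries, and 53 of 74 genes passed the test of that difference (adjusted p under 0.05), among them 32 of the genes named in the report. The model shares its estimate of the spread over both experiments, with the limit given above. Each value that follows is the log2 fold change with siMESH1-CDS minus that with siMESH1-7002. The differences were negative, with a lower change in experiment 1, for 19 of them. In the large subunit they were -5.98 for MRPL41, -5.13 for MRPL23, -4.97 for MRPL54, -4.73 for MRPL38, -4.61 for MRPL55, -4.29 for MRPL12 and -3.93 for MRPL4. Smaller ones were -2.25 for MRPL10, -1.27 for MRPL11, -1.20 for MRPL17, -1.14 for MRPL35, -1.11 for MRPL40, -0.98 for MRPL46, -0.81 for MRPL53 and -0.34 for MRPL22. Among MRPS genes they were -4.38 for MRPS34, -4.26 for MRPS18A, -4.03 for MRPS12 and -1.07 for MRPS25. The other 13 differences were positive. They were 0.93 for MRPL3, 0.79 for MRPL33, 0.73 for MRPL50, 0.46 for MRPL39 and 0.37 for MRPL47. Among MRPS genes they were 1.09 for MRPS10, 1.06 for MRPS35, 1.05 for MRPS30, 0.69 for MRPS36, 0.59 for MRPS33, 0.58 for MRPS9, 0.47 for MRPS27 and 0.46 for MRPS6. With the GC offset 9 of these 32 genes did not pass the test of the difference: MRPL12 (-1.03), MRPL33 (0.14), MRPL39 (-0.17), MRPL46 (-0.21), MRPL47 (-0.15), MRPL50 (0.00), MRPL53 (0.03), MRPS33 (0.12) and MRPS36 (-0.05). The difference of MRPL40 passed it with the other sign (1.75), and the other 22 passed it with the same sign.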

How the results depend on the processing

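The direction of the subunit difference held in every setting, while the number of rises, and with siMESH1-7002 also of falls, moved. With siMESH1-CDS the 21 rises were 12 under library size scaling, 12 at an adjusted p under 0.01, 13 with the fold limit too, and 14 to 24 without single libraries, where the 35 falls were 25 to 41. The MRPL minus MRPS median (-0.79) was -0.37 with the GC offset and -0.38 with the replicate block and that offset (-0.82 to -0.78 without single libraries). With siMESH1-7002 the 7 rises were 1 with 4 groups in 1 fit, 16 with the GC offset, 16 with replicate block and offset, 2 at 0.01, 1 above the fold limit and 3 to 12 without single libraries. The 27 falls were 4 with 4 groups in 1 fit, 2 above the fold limit and 22 to 31 without single libraries. The MRPL minus MRPS median (0.08) was 0.092 without a filter, 0.122 with the offset, 0.123 with block and offset, 0.061 by structure and 0.062 to 0.105 without single libraries. The 53 differences were 47 to 63 without single libraries. The cause of these moves was not tested, beyond the stricter thresholds themselves. Apart from the GC offset, the shares of all genes that rose or fell under these settings are not given here. The counts therefore describe sensitivity only.

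The GC offset turned the sign of 10 named MRPL and MRPS genes with siMESH1-CDS (value with the replicate block too in parentheses): MRPL37 0.88 (0.88), MRPL40 1.79 (1.70), MRPL42 -0.17 (-0.17), MRPL47 -0.39 (-0.40), MRPL48 -0.13 (-0.13), MRPL53 0.0913 (0.0002), MRPS10 -0.12 (-0.12), MRPS18C -0.38 (-0.40), MRPS33 -0.0754 (-0.0757) and MRPS7 0.0435 (0.0341). Of the genes named from other lists it turned POLG (0.33), PPARGC1B (0.84), MYC (0.96), MTERFD1 (-0.57) and the cell-line markers PAX8 (0.28), PAX2 (1.88), KRT8 (0.04) and VIM (1.18) with siMESH1-CDS, and PAX8 (0.04) with siMESH1-7002. It turned 6 MRPL and MRPS genes with siMESH1-7002, none of them past the test as counted: MRPL11 0.0183 (0.0186), MRPL23 0.0832 (0.0826), MRPL40 0.10 (0.10), MRPL53 0.0578 (0.0591), MRPL55 0.0191 (0.019) and MRPS15 0.0099 (0.0099). Other sign changes with siMESH1-CDS were in genes not past the test: MRPL47 -0.0707, MRPL48 -0.15, MRPS15 -0.17 and MRPS18C -0.0076 under library size scaling, MRPL48 -0.0738 and MRPS15 -0.10 with 10 reads in every library, MRPL48 -0.0439 and MRPS15 -0.0716 with 4 groups, and MRPS18C -0.009 with a lane term. Without single libraries MRPL1 ranged from -0.19 to 0.10 with siMESH1-CDS, and with siMESH1-7002 MRPL40 from -0.0408 to 0.0273, MRPL54 from -0.0621 to 0.0909 and MRPS36 from -0.0268 to 0.153.

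The all-gene median with siMESH1-CDS was -0.05, -0.31 under library size scaling and 0.17 with the GC offset. Of the members called, 37.5% were higher as counted, 24% under library size scaling and 32.6% with the offset (all genes 49.8%, 42.3% and 60.1%). With siMESH1-7002 20.6% were, and 39.0% with the offset (all genes 49.9% and 62.0%). Same-numbered libraries deviated together with correlations of -0.05, 0.22 and 0.13 in experiment 1 and -0.06, 0.04 and -0.08 in experiment 2, and not every library correlated best with its own number. With 3 libraries per group, these values cannot show whether same-numbered libraries are pairs, and the labels do not say. With the replicate block 20 genes rose and 33 fell with siMESH1-CDS and 6 and 26 with siMESH1-7002, and 49 differed between the siRNAs. The shares of all genes with that block are not given here. Leaving out 1 library lost the call of 7 named genes with each siRNA (with siMESH1-CDS MRPL12, MRPL18, MRPL23, MRPL42, MRPL53, MRPS10 and MRPS9, with siMESH1-7002 MRPL1, MRPL33, MRPL35, MRPL45, MRPS27, MRPS30 and MRPS6), at adjusted p of 0.051 to 0.090 and 0.056 to 0.18. Genes of few reads in experiment 1, such as MRPL41 (0 to 7), limit how well their falls can be sized.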
